A study of Homo sapiens with 30 samples.

Results

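The genes described here are 10 human genes that detect DNA double-strand breaks or pass the signal on to the cell cycle, namely MRE11, RAD50, NBN, ATM, ATR, PRKDC, H2AX, TP53BP1, CHEK1 and CHEK2. They were chosen by name: every probe set of the array whose annotation gave 1 of these symbols and no other was taken, older names included. This gave 25 probe sets of the 22283 on the array, with at least 1 for each of the 10 genes, among 11963 genes with a probe set of 1 symbol. The RNA came from GM15036 and GM15510, established lymphoblastoid lines (B cells made immortal by the Epstein-Barr virus), kept as suspension cultures in MEM with serum. Cells of both lines were exposed to a caesium 137 source at 1, 2.5, 5, 7.5 or 10 cGy, with 3 arrays for each line and dose, which makes 10 groups and 30 arrays. The series design text gives the same dose numbers in Gy, and the cGy of the sample labels is used here. No unirradiated cells were analysed here. Each dose was therefore set against the lowest, 1 cGy, within its line, so the comparisons of a line share those 3 arrays and a change common to the 5 doses is invisible. How long after exposure RNA was taken is not stated in the labels. Whether triplicate arrays represent separate cultures is not stated either, so p-values measure only the spread between arrays, which may be technical.

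When both strands of DNA break, the MRE11-RAD50-NBN complex holds and trims the ends and activates the kinase ATM, while the Ku proteins recruit PRKDC, the catalytic subunit of DNA-PK, for direct rejoining. ATR answers to single-stranded DNA at resected ends and stalled replication forks. These kinases phosphorylate the histone H2AX around the break, which serves as a platform for TP53BP1, and they switch on CHEK1 and CHEK2, which halt the cell cycle. The pathway runs mainly through protein phosphorylation, which an RNA array does not measure.

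The promoters of H2AX, the member with the largest difference between doses that passed the test, and of RAD50, which differed in the opposite direction in GM15036, are shown as the 250 bases before the annotated start of each gene. The sequences are from RefSeq on build GRCh38.p14, at chr11:119095466-119095715 on the minus strand for H2AX and at chr5:132556727-132556976 on the plus strand for RAD50, and both are written 5′ to 3′ along the gene. Capitals mark the CCAAT box, searched as CCAAT and as its reverse complement ATTGG.
H2AX: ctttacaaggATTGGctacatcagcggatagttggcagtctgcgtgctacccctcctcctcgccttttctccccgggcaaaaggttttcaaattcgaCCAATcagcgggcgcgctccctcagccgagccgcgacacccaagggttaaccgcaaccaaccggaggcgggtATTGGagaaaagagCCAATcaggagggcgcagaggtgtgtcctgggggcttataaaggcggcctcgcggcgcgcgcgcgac
RAD50: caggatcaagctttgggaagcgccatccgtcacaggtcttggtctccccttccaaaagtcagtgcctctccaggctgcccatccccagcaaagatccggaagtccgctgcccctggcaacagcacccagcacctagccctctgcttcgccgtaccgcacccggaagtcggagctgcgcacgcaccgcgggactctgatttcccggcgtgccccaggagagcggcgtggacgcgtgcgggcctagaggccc
The H2AX window held 4 CCAAT matches, 2 on each strand, and 0.874% of the 35116 promoters of the same table held at least as many, while 32.0% held at least 1. It also held 1 TATAAA match on either strand, as did 10.7% of promoters, and no GGGCGG, which 42.6% held. The RAD50 window held none of these 3 motifs. A match is a description of the letters and not evidence of binding, and nothing follows from a motif that these windows lack.

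The arrays differed in overall brightness, the mean of the unscaled intensity between its 2nd and 98th percentiles, by 7.91 times, with single arrays between 14.1 and 112, and each was scaled to 1 common brightness before any comparison. Brightness moved with dose. In GM15036 it averaged 69.6 ± 10.2 at 1 cGy, 49.8 ± 6.12 at 2.5, 51.3 ± 3.47 at 5, 32.4 ± 4.73 at 7.5 and 22.1 ± 10.4 at 10 cGy (SD, n = 3 each). In GM15510 it averaged 69.4 ± 10.5 at 1 cGy, 18.7 ± 4.48 at 2.5, 39.0 ± 26.6 at 5, 67.7 ± 21.7 at 7.5 and 89.1 ± 23.6 at 10 cGy (SD, n = 3 each). For GAPDH, the 3-prime over 5-prime signal (log2), a check on RNA integrity, had group means of 2.45 to 2.80 in GM15036 and 2.25 to 2.45 in GM15510. For ACTB the same measure moved more with dose. It averaged 4.22 at 1 cGy, 5.18 at 2.5, 4.80 at 5, 5.15 at 7.5 and 4.98 at 10 cGy in GM15036, and 3.58, 4.12, 4.58, 3.59 and 4.94 at the same doses in GM15510. In further tests of the results below, brightness and each of these ratios were entered as covariates, 1 at a time. Since they moved with dose, a call lost in this way does not tell them apart from dose. The only other test, for brightness, left out the 5 dimmest arrays. These were replicates a and b at 10 cGy in GM15036, and replicates 2 and 3 at 2.5 cGy and 1 at 5 cGy in GM15510. Leaving them out kept only replicate c at 10 cGy in GM15036 and only replicate 1 at 2.5 cGy in GM15510. In those groups a loss through brightness cannot be told apart from a loss through fewer arrays. Of 10 B cell markers, 9 had a probe set, all 9 bright enough to test, with a summed scaled intensity of 1445 to 2306. FCER2 was the dimmest, with a median of 13.0 and a lowest value of 1.09. The summed level was 6.24 to 29.3 for 4 monocyte and 25.2 to 83.8 for 7 T and NK cell markers. It was 6.23 to 43.5 for 3 erythroid and 19.8 to 71.1 for 4 fibroblast markers. Of these other lists, CD3E, HBB, COL1A1 and COL1A2 were bright enough to test.

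Of the 25 probe sets, 21 were bright enough to enter the tests, among 13331 tested in all, and every gene kept at least 1. The other 4, MRE11 211334_at, RAD50 209349_at and H2AX 212525_s_at and 212524_x_at, lay below the brightness filter, with scaled intensities between 0.353 and 23.6, and are not described further. The suffixes _s_at and _x_at mark probe sets whose probes can match more than 1 transcript or gene. A probe set was called different when its limma p, adjusted by Benjamini-Hochberg over the 13331 tested probe sets, was under 0.05, and all differences below are on the log2(scaled intensity + 4) scale. Arrays of a dose that all lay to 1 side of those at 1 cGy were common, at 16.4% to 27.1% of all tested probe sets in the 8 comparisons. In bulk RNA, fewer cells of a type and less RNA per cell cannot be told apart.

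In GM15036, no member was called at 2.5 cGy (0.548% of all tested probe sets were) or at 5 cGy (0.143%), although 3 and 5 members had an unadjusted limma p under 0.05 there, against 9.47% and 7.97% of all. At 7.5 cGy 1 of 21 was called, PRKDC (3.22% of all). At 10 cGy 4 of 21 were called (11.7% of all), PRKDC, RAD50 and NBN lower (7.35% of all were lower) and H2AX higher (4.39% were higher). Centring unscaled arrays on their medians made 10 members lower and none higher there. It moved all tested probe sets too, with 4251 lower and 77 higher at that dose, against 980 and 585 in the main setting. Their median difference was then -0.38, so the member count does not single out these genes. In GM15510, 3 of 21 were called at 2.5 cGy (9.49% of all), namely PRKDC, ATR and MRE11, and all were lower (5.57% of all were lower). PRKDC alone was called at 5 cGy (4.19% of all), none at 7.5 cGy (1.79% of all), where 5 had an unadjusted p under 0.05 against 11.9% of all, and H2AX alone at 10 cGy (5.91% of all). These counts lie near the shares of all probe sets called, and the differences described below are those of single members. The median difference of the 21 probe sets lay between -0.21 and -0.033 in the 8 comparisons, against -0.011 to 0.030 for all tested probe sets.

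**Figure D1:**
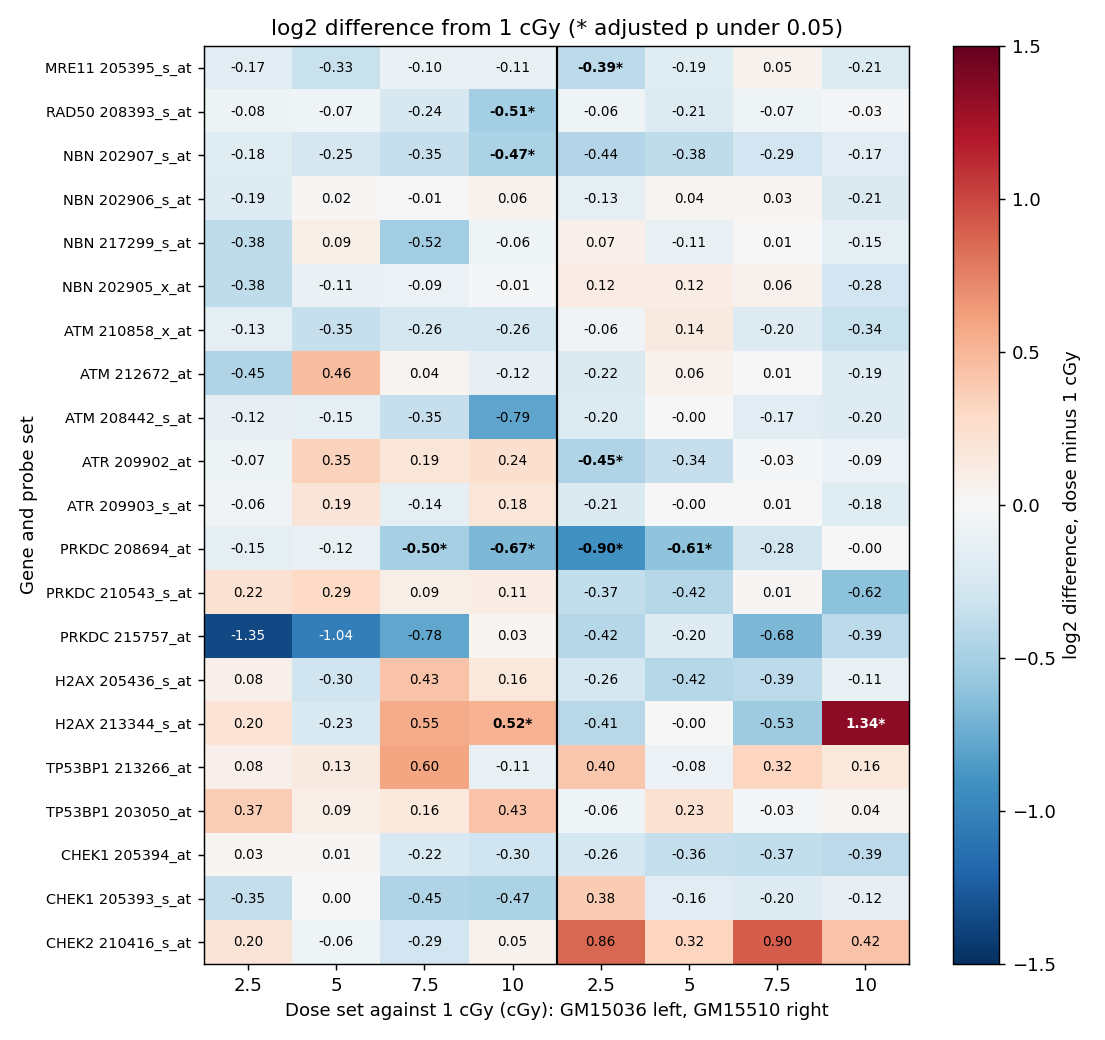
Log2 difference of each dose from 1 cGy for the 21 tested probe sets (rows, gene and probe set), with GM15036 in the left 4 columns and GM15510 in the right 4. Colour and printed value give the difference, red for higher and blue for lower than 1 cGy, and an asterisk marks an adjusted p under 0.05. PRKDC 208694_at carries 4 of the 10 asterisks and H2AX 213344_s_at the highest value, 1.34.

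Among the break sensors, RAD50, the coiled-coil ATPase that bridges broken ends, fell in GM15036 at 10 cGy. Probe set 208393_s_at read 151, 155 and 143 at 1 cGy, 137, 148 and 139.5 at 2.5, 138, 131 and 160.4 at 5, 129, 116 and 133 at 7.5, and 116, 93.1 and 105 at 10 cGy in that line. All 3 arrays at 7.5 cGy and all 3 at 10 cGy lay below the 3 at 1 cGy, while those at 2.5 and 5 cGy overlapped them. At 10 cGy the difference was -0.51 ± 0.117 (SE, adjusted p = 0.00319), and at 7.5 cGy it was -0.24 and did not pass (adjusted p = 0.309). In GM15510 the same probe set averaged 179 ± 11.9 at 1 cGy, 173 ± 25.9 at 2.5, 155 ± 11.3 at 5, 171 ± 1.59 at 7.5 and 176 ± 24.5 at 10 cGy (SD, n = 3 each), and no dose was called. The call in GM15036 was lost with array brightness as a covariate (-0.38, adjusted p = 0.271) and with the GAPDH ratio as one (-0.39, adjusted p = 0.0624).

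NBN, which links the complex to ATM, and MRE11, its nuclease, were called at 1 dose each. NBN 202907_s_at had 137, 166 and 118 at 10 cGy in GM15036, against 156, 191 and 247 at 1 cGy. The groups overlapped, since 166 lies above the lowest array at 1 cGy, and the fall of 0.47 (SE 0.159, adjusted p = 0.0472) held in 5 of 15 other settings and in 13 of the 30 fits that each left out 1 array. Without replicate c at 1 cGy the adjusted p was 0.310. The other 3 NBN probe sets differed from 1 cGy at that dose by -0.060 to 0.055, with none called. In GM15510 all arrays of 202907_s_at at 2.5, 5 and 7.5 cGy lay below those at 1 cGy (-0.44, -0.38 and -0.29), and no dose was called. The other 3 probe sets overlapped 1 cGy at these doses. MRE11 205395_s_at had 215, 216 and 278 at 2.5 cGy in GM15510, against 280.5, 310.4 and 337 at 1 cGy. The highest array at 2.5 cGy fell just under the lowest at 1 cGy. The difference was -0.39 ± 0.117 (SE, adjusted p = 0.0301), and it was lost in 6 of 15 other settings, among them brightness (adjusted p = 0.412) and the ACTB ratio (adjusted p = 0.0836) as covariates. It was also lost without replicate 2 or 3 at 1 cGy or replicate 1 or 2 at 2.5 cGy, with adjusted p up to 0.148. At the other doses MRE11 was not called in either line, although all arrays at 2.5 and 5 cGy in GM15036 lay below those at 1 cGy (-0.17 and -0.33).

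PRKDC, the kinase subunit of DNA-PK that drives end joining, was called in 4 of the 8 comparisons of doses, and its order of doses was unlike in the lines. Probe set 208694_at read 170.4, 174 and 211 at 1 cGy in GM15036, 149.7, 167 and 182 at 2.5, 199.5, 148 and 165 at 5, 129, 126 and 132 at 7.5, and 103, 124 and 116 at 10 cGy. The 6 arrays at 7.5 and 10 cGy lay below all others of the line. In GM15510 it read 186, 180.4 and 172 at 1 cGy, 102, 90.0 and 90.8 at 2.5, 115, 111 and 124 at 5, 135, 161 and 147 at 7.5, and 184, 168 and 185 at 10 cGy. There the low arrays were those at 2.5 cGy, each later dose was higher than the one before without overlap, and 10 cGy overlapped 1 cGy.

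PRKDC fell by 0.50 at 7.5 cGy (SE 0.114, adjusted p = 0.0100) and by 0.67 at 10 cGy (adjusted p = 1.18e-04) in GM15036. In GM15510 it fell by 0.90 at 2.5 cGy (adjusted p = 2.81e-06) and by 0.61 at 5 cGy (adjusted p = 0.00113), and it differed by -0.28 at 7.5 cGy (adjusted p = 0.289) and by -0.0049 at 10 cGy (adjusted p = 0.994). The linear slope on dose was -0.0742 per cGy in GM15036 (SE 0.0111, adjusted p = 1.69e-05), where 4 members, PRKDC, RAD50, NBN 202907_s_at and H2AX 213344_s_at, had a called slope (13% of all tested), and 0.0357 per cGy in GM15510 (adjusted p = 0.0578), where 1 member had one (4.62%). The slopes differed between the lines by -0.110 per cGy, GM15036 minus GM15510 (SE 0.0157, adjusted p = 1.16e-05), a test that 2 members and 10.8% of all probe sets passed.

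PRKDC and the brightness of the array moved together in both lines. In GM15510 the group means of brightness and of PRKDC were both lowest at 2.5 cGy, and in GM15036 both were lowest at 10 cGy. With brightness as a covariate, the differences in GM15510 were -0.72 at 2.5 cGy (adjusted p = 0.0307) and -0.51 at 5 cGy (adjusted p = 0.0370), whereas those in GM15036, -0.39 at 7.5 cGy (adjusted p = 0.183) and -0.51 at 10 cGy (adjusted p = 0.0914), no longer passed. Replicate 3 at 5 cGy in GM15510 was a bright array, at 69.3, and its PRKDC value of 124 was below the 172 to 186 of the 3 arrays at 1 cGy. It was also the brightest array of its group and had the highest PRKDC value of it. At 7.5 cGy in that line, the order of the 3 arrays in PRKDC was that of their brightness. Which of brightness and dose these values follow was not tested. Without replicate c at 1 cGy or replicate b at 7.5 cGy, the call at 7.5 cGy in GM15036 was also lost (adjusted p = 0.0947 and 0.0510). The other PRKDC probe sets, 210543_s_at and 215757_at, had SE of 0.288 and 0.516 in every comparison of doses and were called at no dose. The widest gap, -1.35 for 215757_at at 2.5 cGy in GM15036, had an adjusted p of 0.331. At 7.5 and 10 cGy in that line 215757_at differed by -0.78 and 0.032. There 210543_s_at differed by 0.22, 0.29, 0.088 and 0.11 at 2.5, 5, 7.5 and 10 cGy. In GM15510 at 2.5 and 5 cGy, 210543_s_at differed by -0.37 and -0.42, and 215757_at by -0.42 and -0.20. At 10 cGy in that line 210543_s_at differed by -0.62, with all arrays below those at 1 cGy.

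**Figure D2:**
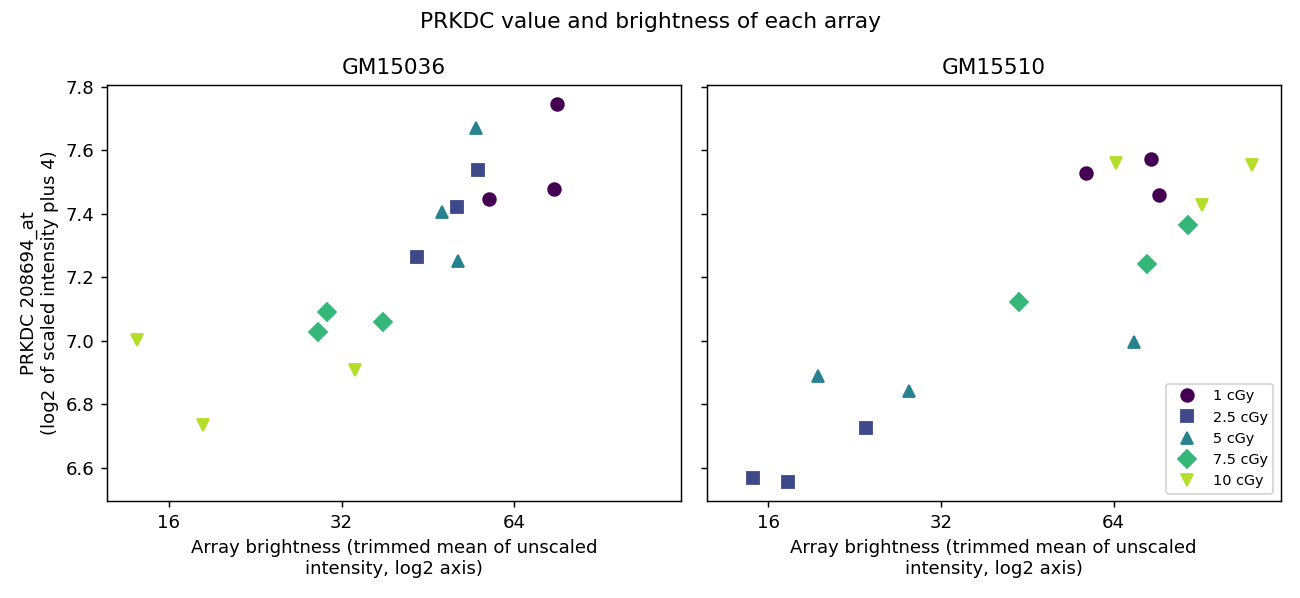
Value of PRKDC 208694_at in each array (vertical, log2 of scaled intensity plus 4) against the brightness of that array (horizontal, log2 axis), GM15036 left and GM15510 right. Marker and colour give the dose. Dim arrays had low PRKDC values in both lines. The brightest array at 5 cGy in GM15510, at 69.3, had the highest PRKDC value of its group. It lay below the 3 arrays at 1 cGy of that line (124 against 172 to 186 on the linear scale).

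ATR, the kinase of the replication checkpoint, was lower at 2.5 cGy in GM15510. Probe set 209902_at had 87.6, 82.3 and 74.4 at 2.5 cGy in that line, against 109.8, 111 and 116 at 1 cGy. These groups did not overlap, and the difference was -0.45 ± 0.116 (SE, adjusted p = 0.0112). At 5 cGy it had 88.8, 85.9 and 88.7, also below all arrays at 1 cGy, but the difference of -0.34 did not pass (adjusted p = 0.0933). In GM15036 the same probe set averaged 103 ± 11.2 at 1 cGy, 97.7 ± 7.80 at 2.5, 132 ± 9.47 at 5, 117 ± 8.41 at 7.5 and 123 ± 14.4 at 10 cGy (SD, n = 3 each), with no dose called. The call at 2.5 cGy in GM15510 was lost with brightness as a covariate (adjusted p = 0.415) and without replicate 3 at 2.5 cGy (adjusted p = 0.0550). It was also lost without the 5 dimmest arrays (-0.34), a fit that kept only replicate 1 at that dose. The second probe set, 209903_s_at, differed by -0.21 at 2.5 cGy in that line (adjusted p = 0.172). In GM15036 both ATR probe sets passed an F test over the 5 doses, as did 16.2% of all tested probe sets. The F call of 209902_at held in 10 of 15 other settings, and that of 209903_s_at in 12. All arrays at 5 cGy there lay above those at 1 cGy with both, by 0.35 and 0.19 on average, and neither difference was called.

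ATM, the central kinase of the response to double-strand breaks, was not called at any single dose. An F test over the 5 doses passed for 212672_at in GM15036 (F = 5.87, adjusted p = 0.0118), where 7 members and 16.2% of all tested probe sets passed. Its arrays in GM15036 read 58.7, 58.9 and 64.5 at 1 cGy, 50.7, 42.8 and 37.3 at 2.5, 75.9, 102 and 80.1 at 5, 72.5, 64.5 and 52.0 at 7.5, and 55.5, 45.2 and 67.8 at 10 cGy. All arrays at 2.5 cGy lay below those at 1 cGy and all at 5 cGy above them, with differences of -0.45 and 0.46 that did not pass alone (adjusted p = 0.419 and 0.489). The F call was lost without replicate c at 2.5 cGy or replicate b at 5 cGy, with an adjusted p up to 0.0739. The other ATM probe sets passed no F test. With 210858_x_at, all arrays at 5 cGy in GM15036 lay below those at 1 cGy, opposite to 212672_at, and the difference was -0.35 (adjusted p = 0.529). It differed by -0.13 at 2.5 and by -0.26 at 7.5 cGy, where all its arrays also lay below those at 1 cGy. The dimmer 208442_s_at ranged from 5.01 to 48.8 in GM15036. At 10 cGy in that line all its arrays lay below those at 1 cGy, and the difference of -0.79 was not called.

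At the chromatin of the break, H2AX, the histone variant whose phosphorylated form marks damage sites, gave the largest called difference of the 10 genes. Probe set 213344_s_at read 54.6, 68.5 and 60.8 at 1 cGy in GM15510, 33.8, 45.3 and 58.6 at 2.5, 66.2, 73.2 and 46.4 at 5, 37.3, 39.5 and 46.8 at 7.5, and 159, 177 and 149 at 10 cGy. The 3 arrays at 10 cGy stood above the other 12 of the line by a wide margin. In GM15036 it read 109, 119 and 134 at 1 cGy, 115, 130.2 and 180.2 at 2.5, 98.4, 95.7 and 113 at 5, 173, 182 and 181 at 7.5, and 153, 199.6 and 175 at 10 cGy. In that line the arrays at 7.5 and 10 cGy all lay above those at 1 cGy, and 1 array at 2.5 cGy reached their level.

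H2AX 213344_s_at rose by 1.34 at 10 cGy in GM15510 (SE 0.171, adjusted p = 2.36e-06), and this held in all 15 other settings and without each of the 30 arrays in turn. The arrays at 10 cGy in this line were its brightest group, and their ACTB ratio was 4.84 to 5.06, against 3.00 to 3.89 at 1 cGy. With brightness as a covariate the adjusted p was 1.15e-06, and with the ACTB ratio as one the difference was 1.196 (adjusted p = 9.72e-04). At 7.5 cGy the same probe set differed by -0.53 (adjusted p = 0.117), so the rise stood at the top dose alone, and the slope of 0.119 per cGy (adjusted p = 1.77e-05) turned to -0.0509 per cGy when the 10 cGy arrays were left out (adjusted p = 0.381). In GM15036 the difference at 10 cGy was 0.52 (SE 0.171, adjusted p = 0.0406), which was lost in 9 of 15 other settings, the ACTB ratio as a covariate included (adjusted p = 0.153), and turned to -0.080 when unscaled arrays were centred on their medians (adjusted p = 0.801). It was also lost without replicate a or b at 1 cGy or replicate b or c at 10 cGy, with adjusted p up to 0.173.

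The other tested H2AX probe set, 205436_s_at, did not show the rise at 10 cGy in GM15510, with 134, 129 and 124, against 119.6, 143 and 159 at 1 cGy, a difference of -0.11 ± 0.142 (SE, adjusted p = 0.827). In GM15036 it passed the F test (F = 6.98, adjusted p = 0.00490), with 88.1, 79.0 and 85.8 at 5 cGy and 134, 152 and 142 at 7.5 cGy around 105, 128 and 85.6 at 1 cGy. The 7.5 cGy arrays lay above all at 1 cGy, but that difference of 0.43 did not pass alone (adjusted p = 0.0898). The F call was lost under median centring (adjusted p = 0.122), centring after scaling (adjusted p = 0.0555) and with the GAPDH ratio as a covariate (adjusted p = 0.0612). Across the 10 group means, each centred on its line, the H2AX probe sets correlated at r = 0.57, which is a description, since all probe sets share the same arrays. The rise at 10 cGy in GM15510 was thus read by 1 of the 2 tested probe sets.

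**Figure D3:**
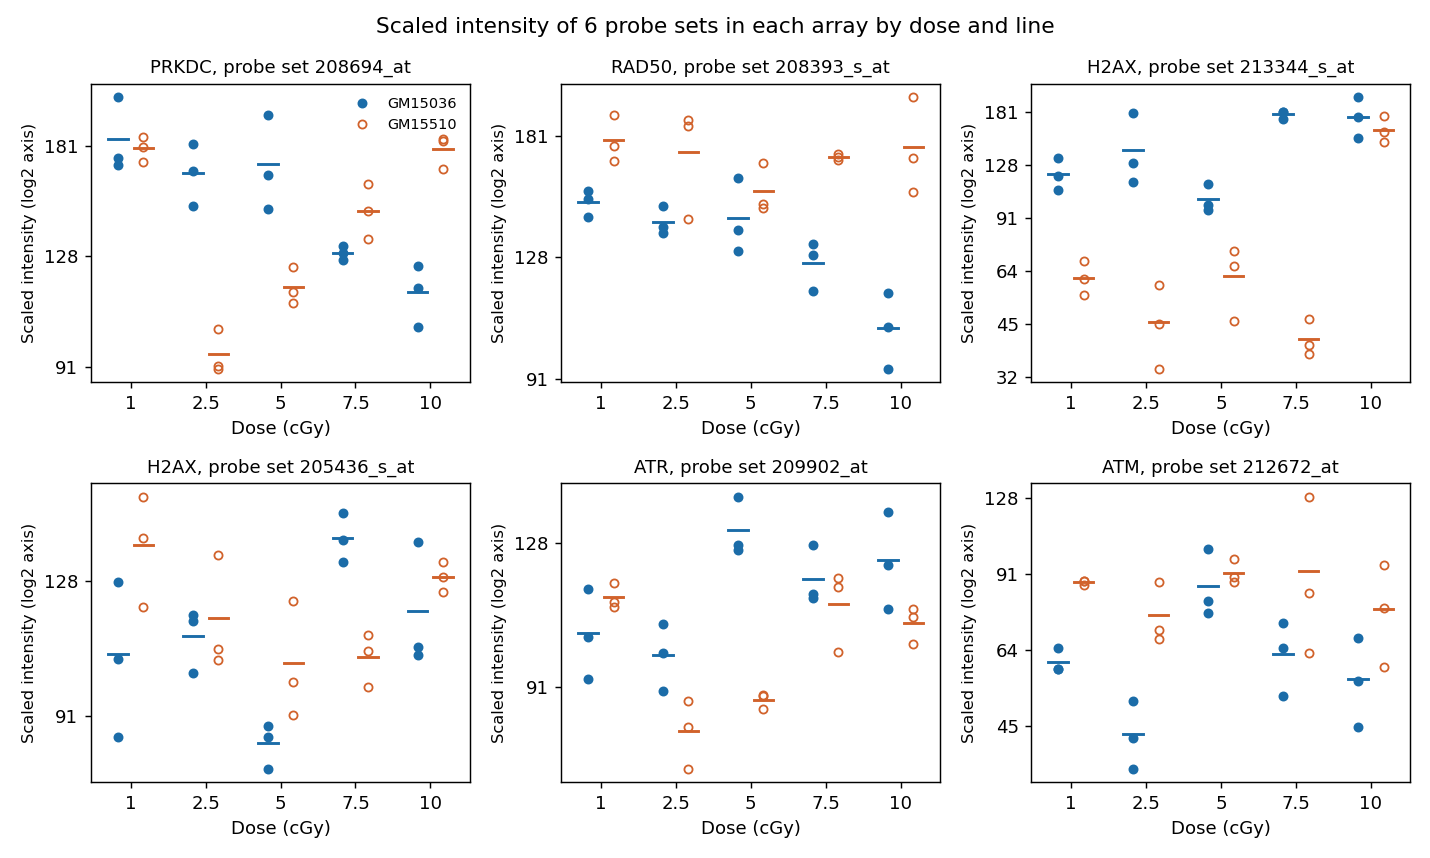
Scaled intensity (log2 axis) in each array by dose for 6 probe sets, with GM15036 as filled blue points, GM15510 as open orange points and a bar at the mean of the 3 arrays. PRKDC had its lowest mean at 10 cGy in GM15036, but at 2.5 cGy in GM15510, and H2AX 213344_s_at in GM15510 read 149 to 177 at 10 cGy and at most 73.2 at the other doses.

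TP53BP1, the scaffold that steers breaks toward end joining, was called in no comparison of doses. Probe set 203050_at ranged from 39.2 to 85.0 in GM15036 with a median of 61.4, and from 41.0 to 68.8 with a median of 55.3 in GM15510. Its largest difference was 0.43 ± 0.201 (SE) at 10 cGy in GM15036, with 71.7, 85.0 and 63.6 there, against 74.2, 51.4 and 39.2 at 1 cGy (adjusted p = 0.183). The dimmer 213266_at had an SE of 0.326 in every comparison, so a difference such as its 0.60 at 7.5 cGy in GM15036 could not be told from the spread between arrays (adjusted p = 0.405).

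The checkpoint kinases were called at no dose either. CHEK1, which acts below ATR, averaged 116 ± 7.19 at 1 cGy, 119 ± 10.8 at 2.5, 119 ± 27.5 at 5, 98.9 ± 6.27 at 7.5 and 96.3 ± 27.0 at 10 cGy in GM15036 with probe set 205394_at (SD, n = 3 each). In GM15510 the means were 176 ± 23.2 at 1 cGy, 145 ± 14.2 at 2.5, 136 ± 14.7 at 5, 136 ± 27.5 at 7.5 and 133 ± 16.4 at 10 cGy (SD, n = 3 each). With this probe set every higher dose in GM15510 had a lower mean than 1 cGy, with differences of -0.39 to -0.26 (SE 0.171 each), and none passed (adjusted p = 0.221 at 10 cGy). The second probe set, 205393_s_at, averaged 56.9 ± 10.4 at 2.5 cGy in GM15510, against 42.4 ± 4.68 at 1 cGy (SD, n = 3 each), a difference of 0.38 in the other direction (adjusted p = 0.401). At the other doses in both lines it differed by -0.47 to 0.0046, with none called. CHEK2, which acts below ATM, has 1 probe set here, 210416_s_at. In GM15510 it had 41.0, 27.8 and 34.5 at 7.5 cGy, against 27.3, 7.10 and 20.2 at 1 cGy. Those arrays did not overlap, but with an SE of 0.316 the difference of 0.90 did not pass (adjusted p = 0.169).

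A line by dose interaction asks whether the doses differed in another way in GM15036 than in GM15510. Of the 21 members, 6 passed this F test, against 20.5% of all tested probe sets, namely both tested H2AX probe sets, both ATR probe sets, PRKDC 208694_at and RAD50 208393_s_at. PRKDC (F = 24.5, adjusted p = 6.05e-07) and H2AX 213344_s_at (F = 18.9, adjusted p = 4.66e-06) passed in all 14 other settings and without each array in turn. RAD50 (adjusted p = 0.0488) and ATR 209903_s_at (adjusted p = 0.0414) passed in 5 and 6 of the 14 other settings. ATR 209902_at (F = 4.74, adjusted p = 0.0247) was lost without any 1 of 4 arrays, replicate c at 1 cGy or a at 5 cGy in GM15036 and replicate 3 at 1 cGy or 2b at 5 cGy in GM15510 (adjusted p up to 0.0755). H2AX 205436_s_at (F = 4.98, adjusted p = 0.0202) was lost without replicate b at 7.5 cGy in GM15036 or replicate 3 at 7.5 cGy in GM15510 (adjusted p = 0.0613 and 0.0654), and with the GAPDH or ACTB ratio as a covariate (adjusted p = 0.0557 and 0.0781). Within GM15510 alone, 4 members passed an F test of any dose difference, against 21% of all probe sets, PRKDC (F = 23.7), H2AX 213344_s_at (F = 38.3), ATR 209902_at (F = 6.06) and MRE11 (F = 4.61). The MRE11 call was lost in 6 of 15 other settings. It was also lost without replicate 3 at 1 cGy, 1 or 2 at 2.5 cGy, or 1 or 3 at 7.5 cGy (adjusted p up to 0.0993). The ATR call was lost with brightness as a covariate (adjusted p = 0.407). It was also lost without the 5 dimmest arrays, a fit that kept only replicate 1 at 2.5 cGy.

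The lines also differed in their level averaged over the 5 doses, GM15036 minus GM15510, for 11 of 21 member probe sets from 7 genes, against 47.2% of all tested. Both are single lines, so the difference is between these cultures and not between groups of donors. Of these, 7 were lower in GM15036 (20.5% of all tested were lower) and 4 higher (26.7% were higher). Median centring made 9 lower and 1 higher. It also moved all tested probe sets, to 3639 lower and 1971 higher, against 2733 and 3559 in the main setting. NBN 202906_s_at ranged from 146 to 236 with a median of 180.1 in GM15036, against 213 to 326 with a median of 261 in GM15510, a difference of -0.48 ± 0.0535 (SE, adjusted p = 3.97e-09). NBN 217299_s_at and 202905_x_at were also lower, both by 0.40 in size, whereas 202907_s_at was not called. RAD50 208393_s_at was lower (-0.36, adjusted p = 7.53e-07), as was ATM 212672_at (-0.44, adjusted p = 6.12e-05). CHEK1 was lower on both its probe sets, with -0.39 for 205394_at (adjusted p = 6.38e-05) and -0.57 for 205393_s_at (adjusted p = 1.25e-04).

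H2AX 213344_s_at was higher in GM15036, where it ranged from 95.7 to 199.6 with a median of 134, against 33.8 to 177 with a median of 58.6 in GM15510. The difference was 1.07 ± 0.0763 (SE, adjusted p = 1.42e-13), and at 10 cGy the lines overlapped. The other tested H2AX probe set, 205436_s_at, was not called. The ATR probe sets were higher by 0.20 and 0.16 (adjusted p = 0.00196 and 0.00268), calls that were lost when arrays were centred on their medians, with or without scaling first, and with the GAPDH ratio as a covariate. That of 209902_at was also lost with the ACTB ratio as one (adjusted p = 0.0569). CHEK2 was higher by 0.34 (adjusted p = 0.0498), and this was lost in 11 of 14 other settings. The called line differences of RAD50, NBN, ATM, CHEK1 and H2AX held in all 14 other settings and without each array in turn, except NBN 217299_s_at with the ACTB ratio as a covariate (-0.33, adjusted p = 0.0501).

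**Figure D4:**
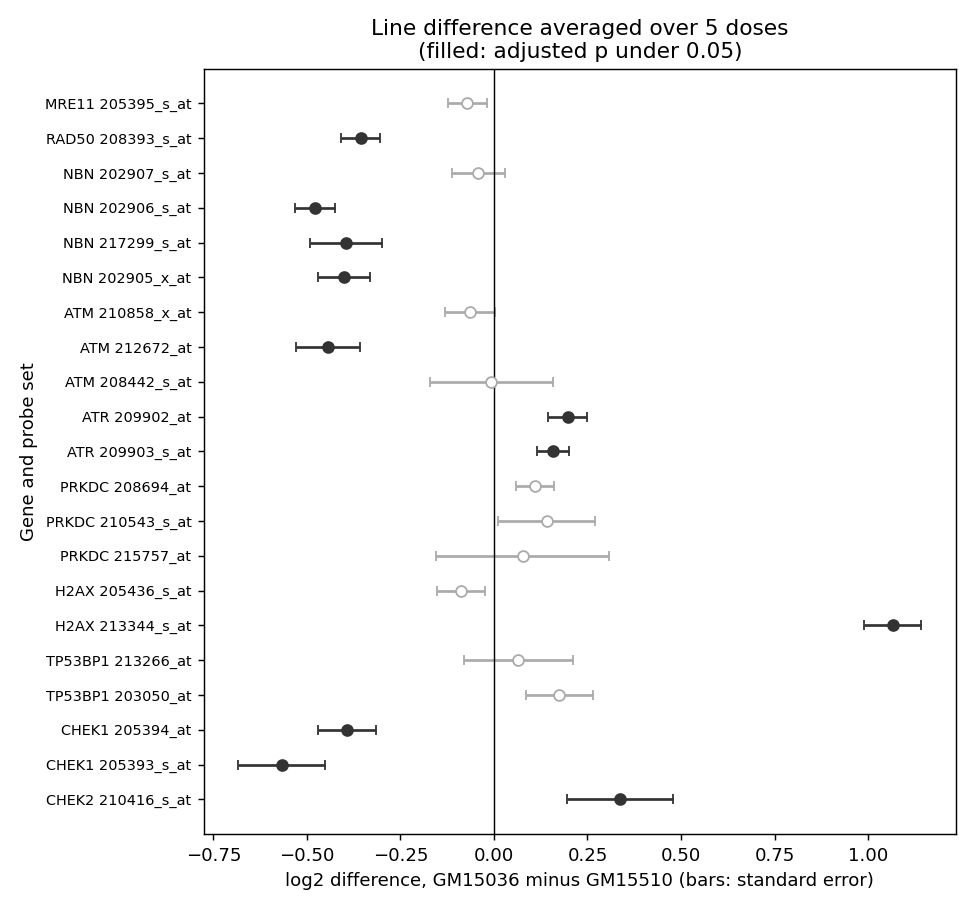
Difference between the lines averaged over 5 doses for the 21 tested probe sets (log2, GM15036 minus GM15510), with bars for the standard error. Filled points had an adjusted p under 0.05. H2AX 213344_s_at stands apart at 1.07, and 7 of the 11 called probe sets lie below 0.

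The wider pathway was read from a list of 52 further genes, with 1 probe set a gene. Of these, 41 were tested, the probe sets taken for RIF1, LIG4 and CDC25C lay below the filter, and 8 genes were not analysed here. Each value below is that of 1 probe set and need not hold for the others of its gene, which are not described. XRCC5, XRCC6, DCLRE1C, BRCA1, BRCC3, CDC25A and TELO2 have 2 probe sets each, and MDM2 has 5. At 10 cGy in GM15036, 8 of 41 were called (11.7% of all tested probe sets were), 6 lower (7.35% of all) and 2 higher (4.39% of all). No gene of the list was called at 2.5, 5 or 7.5 cGy in that line, where 0.548%, 0.143% and 3.22% of all were. Among the genes for end binding and resection, XRCC6, the Ku70 partner of PRKDC, fell by 0.46 (adjusted p = 3.78e-04) and DNA2, a resection nuclease, by 0.74 (adjusted p = 0.00113). TIPIN, which with TIMELESS stabilises forks for CHEK1 activation, fell by 0.53 (adjusted p = 0.00363) and held in all 15 other settings. PPM1D, the phosphatase that switches off ATM and CHEK2 signalling, fell by 0.97 (adjusted p = 2.03e-04), and MDM2, the negative regulator of p53, rose by 0.76 (adjusted p = 0.0181). PPM1D and DNA2 were not called with brightness as a covariate, nor MDM2 in 4 of 15 other settings. XRCC6 was not called without the 5 dimmest arrays, a fit that kept only replicate c at 10 cGy. MDM2 was also lost without replicate b or c at 1 cGy or replicate a at 10 cGy (adjusted p up to 0.116). The remaining 3 genes called were each lost in 3 or more of the other settings, PPP2CA (-0.52), BRCA1 (-0.60) and DCLRE1C (0.47, turned to -0.18 under median centring). BRCA1 was lost without replicate a or b at 1 cGy or b at 10 cGy (adjusted p up to 0.257), and DCLRE1C without replicate a or b at either dose (adjusted p up to 0.150).

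In GM15510, 1 gene of the list was called at 2.5 cGy (9.49% of all tested were), BRCC3 (0.98, adjusted p = 0.00108), a deubiquitinase of the BRCA1-A complex. It was lost with brightness as a covariate (adjusted p = 0.0935) and under median centring (adjusted p = 0.166). At 5 cGy 2 were called (4.19% of all), PPP2CA (-0.52), a phosphatase subunit, and TOPBP1 (-0.38), an activator of ATR. Both were lost with brightness (adjusted p = 0.174 and 0.133) and with the ACTB ratio (adjusted p = 0.107 and 0.136) as covariates. PPP2CA was lost without replicate 3 at 1 cGy or 2b at 5 cGy, and TOPBP1 without either of these or replicate 1 at either dose (adjusted p up to 0.105). None was called at 7.5 cGy. At 10 cGy 3 were called (5.91% of all): CDC25A, the phosphatase that CHEK1 targets for destruction, rose by 0.89 (adjusted p = 1.82e-04), BRCC3 rose by 0.78 (adjusted p = 0.0110) and BRCA1 fell by 0.84 (adjusted p = 0.00313). The rise of CDC25A held in all 15 other settings and without each array in turn, while that of BRCC3 was lost without replicate 3 at 1 cGy (adjusted p = 0.0801). With the ACTB ratio as a covariate neither BRCC3 (adjusted p = 0.101) nor BRCA1 (adjusted p = 0.139) passed. The lines differed for 21 of 41 list genes (47.2% of all tested probe sets), 10 higher (26.7% of all) and 11 lower (20.5% of all) in GM15036, with the Ku subunits XRCC5 (-0.61) and XRCC6 (-0.41) among the lower and TELO2 (0.60), which helps the large kinases to fold, among the higher. The median line difference of the list was -0.0012, against 0.067 for all tested probe sets.

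Among 7714 genes with 1 probe set each, the patterns most like that of PRKDC over the 10 group means, each centred on its line, were those of STAG1 (r = 0.978), UBA3 (r = 0.973) and SMCHD1 (r = 0.973). For ATR the closest were WBP4 (r = 0.907), PIGV (r = 0.906) and NACC2 (r = 0.900), and for ATM they were LXN (r = 0.935), PNO1 (r = 0.906) and NAB1 (r = 0.901). For H2AX 205436_s_at they were ZNF14 (r = 0.954), SAE1 (r = 0.944) and TAF10 (r = 0.915). These correlations are descriptions over group means that share arrays and brightness. Probe sets of 1 gene correlated from -0.46 for the TP53BP1 pair to 0.80 for NBN 202906_s_at and 202905_x_at. PRKDC 208694_at correlated with its other probe sets at 0.20 and -0.098. These pairs were not picked for a high r, as the genes above were, so the values cannot be compared.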

How the data were processed

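Array intensities, deposited unlogged, are MAS5 output of the authors, per the submitters' processing notes. Per the labels' protocols, RNA isolation used a Qiagen kit and biotin labelling the Affymetrix 3'-IVT method, and per the series design text a T7 Arcturus kit served for amplification. The array version and genome build behind the probes are not stated beyond the platform annotation. That annotation can be old, so symbols were updated by gene ID through a RefSeq table of GRCh38 (19059 of 19071 probe sets with 1 symbol matched; 1043 had several symbols and 2169 none).

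A factor brought the trimmed mean of every array (2 to 98 percent) to 50.9, a pseudocount of 4 was added and log2 taken, which understates changes of dim probe sets. Probe sets above the 40th percentile of mean log2 value were tested, with 68 control probe sets left out. limma 3.58.1 in R 4.3.3 was fitted to the 10 groups with an intensity trend (20 residual and 12.3 prior degrees of freedom), two-sided, with Benjamini-Hochberg adjustment and a threshold of 0.05. The fit was tested on simulated data. No pair of arrays was identical, and arrays of 1 group correlated at 0.901 to 0.972. The number of arrays limits the precision. For 1 probe set per gene, the brightest was taken, preferring one without _x_at or _s_at; every member probe set is reported, pathway genes are named where they passed (at most 4 a role and comparison by smallest p), and the 3 most similar genes are named for members passing an F test with that probe set. The members and lists were chosen with earlier results of these data known. Other settings were quantile normalization, 2 kinds of median centring, pseudocounts of 1 and 16, no filter or a 60th percentile one, no trend, array weights, each line alone, brightness or the GAPDH ratio as a covariate, the replicate label as a block, each array left out and, for slopes, 10 cGy left out. Leaving out the 5 dimmest arrays and the ACTB ratio as a covariate were added after the data were seen.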

Additional observations from a re-analysis of the deposited data

Results flagged for a closer look

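For 6 member probe sets the effect of dose differed between the lines by the interaction test. The F values were 24.5 for PRKDC 208694_at, 18.9 for H2AX 213344_s_at, 4.98 for H2AX 205436_s_at (adjusted p = 0.0202), 4.74 for ATR 209902_at (adjusted p = 0.0247), 4.16 for ATR 209903_s_at and 3.96 for RAD50 208393_s_at.

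The slope on dose differed between the lines for PRKDC 208694_at by -0.110 per cGy and for RAD50 208393_s_at by -0.0497 per cGy, GM15036 minus GM15510 (adjusted p = 1.16e-05 and 0.0395). PRKDC kept this call without each array in turn, while RAD50 kept it in 19 of the 30 fits that each left out 1 array and in 8 of 15 other settings. Neither passed without the 10 cGy arrays or with brightness as a covariate, where the slope difference of PRKDC was -0.0808 (adjusted p = 0.115).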

How the results depend on the processing

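The number of members called changed with the scaling. Centring unscaled arrays on their medians moved the median difference of all tested probe sets from 1 cGy to between -0.50 and 0.014, and in GM15036 at 10 cGy it gave 77 higher and 4251 lower calls over all probe sets, against 585 and 980 in the main setting, and at 2.5 cGy in GM15510 it gave 83 higher and 5618 lower, against 523 and 742. Member probe sets called under this centring were 10 at 10 cGy in GM15036. In GM15510 they were 15 at 2.5 and 7 at 5 cGy. They were 10 and 2 for the slopes of GM15036 and GM15510, and 11 for the slope difference. For the F test in GM15510 and the interaction they were 13 each. Over all tested probe sets this centring gave 1967 calls at 5 cGy in GM15510 and 4260 and 1704 for the slopes. It gave 5225 for the slope difference, and 6293 and 5880 for these F tests. Centring after scaling gave 8 at 2.5 and 3 at 5 cGy and 2 for the slope in GM15510. It gave 4 for the slope difference and 7 for the F test in GM15510. Over all tested probe sets these tests had 2678, 798, 583, 2193 and 3670 calls with it.

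Brightness as a covariate left 0 at 7.5 and 10 cGy in GM15036, 1 at 2.5 cGy in GM15510, 1 for the slope in GM15036, 0 for the slope difference, and 3, 2 and 3 for the F tests in GM15036, in GM15510 and of the interaction. The GAPDH ratio left 1 at 10 cGy and 1 for the slope in GM15036. It left 1 for the slope difference and 3 for the F test in GM15036. Over all tested probe sets these tests had 973, 974, 1172 and 1437 calls with this ratio. Without 10 cGy the slopes gave 1 in GM15036, 0 in GM15510 and 1 for their difference. Of all tested probe sets 328, 294 and 404 were called there, against 1733, 616 and 1438 in the main setting. At 7.5 cGy in GM15036, 2 were called with quantile normalization, a pseudocount of 16, the 60th percentile filter, array weights or each line alone, and 3 without the 5 dimmest arrays, which also gave 2 at 5 cGy in GM15510. From quantile normalization to each line alone, calls over all probe sets at 7.5 cGy in GM15036 were 409, 439, 549, 581 and 443, against 429. At 10 cGy in GM15036, 2 were called with no filter, no trend, array weights or the ACTB ratio as a covariate. Those settings called 1448, 1351, 1379 and 1126 over all, against 1565. Array weights gave 1 at 7.5, 4 at 10 cGy and 3 for the slope in GM15510 (514, 1697 and 973 over all). The 60th percentile filter gave 2 for that slope (745 over all). The slope difference had 1 with quantile normalization, no filter or no trend (1491, 1289 and 1191 over all). The cause was not tested.

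Calls over all probe sets are not described for the fits that each left out 1 array. Leaving out 1 array at a time gave 0 to 2 member calls at 7.5 and 2 to 4 at 10 cGy in GM15036. In GM15510 it gave 2 to 4 at 2.5 cGy. It gave 3 to 5 and 1 to 2 for the slopes in GM15036 and GM15510, 1 to 3 for their difference, 10 to 12 for the line difference, 4 to 7 and 3 to 5 for the F tests in GM15036 and GM15510, and 3 to 6 for the interaction. Calls turned sign for H2AX 213344_s_at at 10 cGy in GM15036 (-0.080) and for DCLRE1C there (-0.18) under median centring, and for the H2AX slope in GM15510 without 10 cGy (-0.0509). Deviations of arrays with the same replicate label correlated at -0.062 to 0.097, so no shared deviation was seen. This does not show that arrays of 1 label came from unrelated cultures. The replicate block gave 3 member calls at 10 cGy in GM15036, 4 at 2.5 cGy in GM15510 and 4 for the interaction. Over all tested probe sets it gave 1514, 1207 and 2657. It lost NBN 202907_s_at at 10 cGy in GM15036 (adjusted p = 0.0551). Dim probe sets, with an SE above 0.25, could show only large differences.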
